A study of Zea mays with 8 samples.

Results

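The anthocyanin genes of maize are a set of 10 genes among the 39498 gene IDs counted in immature ears, defined by gene name from the pigment pathway, with no threshold on a measured value. They comprise 4 regulators (b1, pl1, r1 and c1) and 6 enzymes (c2, whp1, chi1, pr1, a1 and bz1). RNA was sequenced from 4 groups of 2 libraries each, all of immature ear: a hybrid of B73 and Mo17 homozygous for a mop1 mutation (mop1F1, written B73/Mo17;mop1/mop1 in the labels), a hybrid that is wild type at mop1 (WTF1, written Mo17/B73 with +/+), and the wild-type inbred parents B73 and Mo17. The labels write the parents of the hybrids in opposite order. They name neither the mop1 allele nor the alleles at b1, pl1 or any other pigment gene. Whether replicate libraries stem from different plants is not stated either, so the spread that the p-values rest on may be partly technical.

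Anthocyanins are red and purple flavonoid pigments. In maize their enzymes are switched on by a basic helix-loop-helix protein (b1 or r1) acting together with an R2R3-MYB protein (c1 or pl1), and which member of each pair is active depends on the tissue. Chalcone synthase (c2 and whp1) makes the first flavonoid, chalcone isomerase (chi1) closes its ring, flavonoid 3'-hydroxylase (pr1) sets the hue from red to purple, dihydroflavonol reductase (a1) leads towards the coloured anthocyanidins, and a glucosyltransferase (bz1) makes the stable pigment. At b1 and pl1, certain strongly expressed alleles can be lowered heritably by another allele, which is called paramutation, and mop1, an RNA-dependent RNA polymerase, is needed to keep the lowered states silent. The comparison of mop1F1 with WTF1 therefore asks whether the regulators or their target enzymes differ without functional mop1. The written order of the parents differs along with mop1, and their parts in any difference cannot be told apart.

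The 8 libraries held 11723096 to 26199577 counted reads, so that 1 count corresponds to between 0.0382 and 0.0853 CPM, the count per 1000000 reads counted on genes in that library, and a count of 0 allows up to 3 counts, or 0.115 to 0.256 CPM. These limits concern counting error only. The hybrid libraries of a group differed more from each other than the parental ones: the biological coefficient of variation was 58.6% in mop1F1, 46.5% in WTF1, 16.5% in B73 and 14.6% in Mo17. Both hybrid libraries numbered 1 had many reads that fitted more than 1 gene, 10.25% of records in mop1F1 and 9.70% in WTF1, against 1.29% to 2.35% in the other 6 libraries. The mop1 gene and the marker genes of the ear could not be checked, because the sources used here do not pair their names with gene IDs. CPM values are not corrected for gene length, so levels are compared between libraries for 1 gene and never between genes.

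Of the 10 genes, 7 passed the filter on low counts and were tested: b1 and all 6 enzymes. The filter removed pl1, r1 and c1. The filter keeps a gene that is high enough in any 2 libraries, so the counts below describe the 7 tested genes and not the set of 10. A gene can pass through the libraries where it is high. In fits of either hybrid with B73 alone, whp1 did not pass the filter.

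The MYB regulators were close to undetected in the ear. For c1 (Zm00001d044975.RefGen_V4), the classical activator of kernel colour, 1 read was counted in all 8 libraries together, in WTF1 replicate 2. For pl1 (Zm00001d037118.RefGen_V4), the MYB gene of plant-body colour and a paramutation locus, 6 reads were counted: 1 and 3 in mop1F1, 0 and 0 in WTF1, 0 and 0 in B73, and 2 and 0 in Mo17 (replicates 1 and 2). All pl1 reads thus came from mop1F1 and Mo17 libraries. No pl1 count exceeded the 3 counts that a value of 0 allows, so no fold between the hybrids is given, and a difference in pl1 was not detectable at this depth.

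The bHLH gene r1 (Zm00001d026147.RefGen_V4), whose alleles colour kernels and plant parts, also had 6 reads in all: 0 and 1 in mop1F1, 0 and 0 in WTF1, 1 and 2 in B73, and 2 and 0 in Mo17. It was at or under 2 counts in every library. Together pl1, r1 and c1 had too few reads to order the groups.

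The other bHLH gene, b1 (Zm00001d000236.RefGen_V4), known for pigment in the plant body and for the classical case of paramutation, had 120 reads in all. Its counts were 23 and 16 in mop1F1, 4 and 25 in WTF1, 36 and 16 in B73, and 0 and 0 in Mo17. In CPM these are 0.979 and 0.614 in mop1F1, 0.341 and 0.954 in WTF1, and 1.93 and 0.933 in B73. Replicate 2 of mop1F1 lay inside the range of the WTF1 libraries and replicate 1 just above it, and B73 replicate 1 was the highest library. The mean was 0.796 ± 0.257 CPM in mop1F1 and 0.648 ± 0.433 CPM in WTF1 (SD, n = 2 each), a log2 fold change of 0.33 ± 0.86 (± SE; adjusted p = 1, edgeR quasi-likelihood test). This fold became -0.17 without mop1F1 replicate 1 and -0.16 without WTF1 replicate 1, so single libraries set its sign.

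A level of b1 in Mo17 could not be read from these tables. All 319 IDs numbered 460 or lower, to which b1 belongs, had 0 counts in both Mo17 libraries. Among tested IDs alone, this held for 173 of 173 with such numbers and for 3.06% of those with higher or other numbers. Per the names of the deposited tables, reads of Mo17 were mapped to its own genome and all other reads to B73. The test called b1 higher in B73 than in Mo17 (edgeR, adjusted p = 0.0236), as were 6.21% of all tested IDs, and the call was lost without any 1 of the 4 parental libraries (adjusted p = 0.0705 to 0.123). However, the 0 of b1 in Mo17 can stand for an ID that was left out of the counting, and no fold is given.

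**Figure D1:**
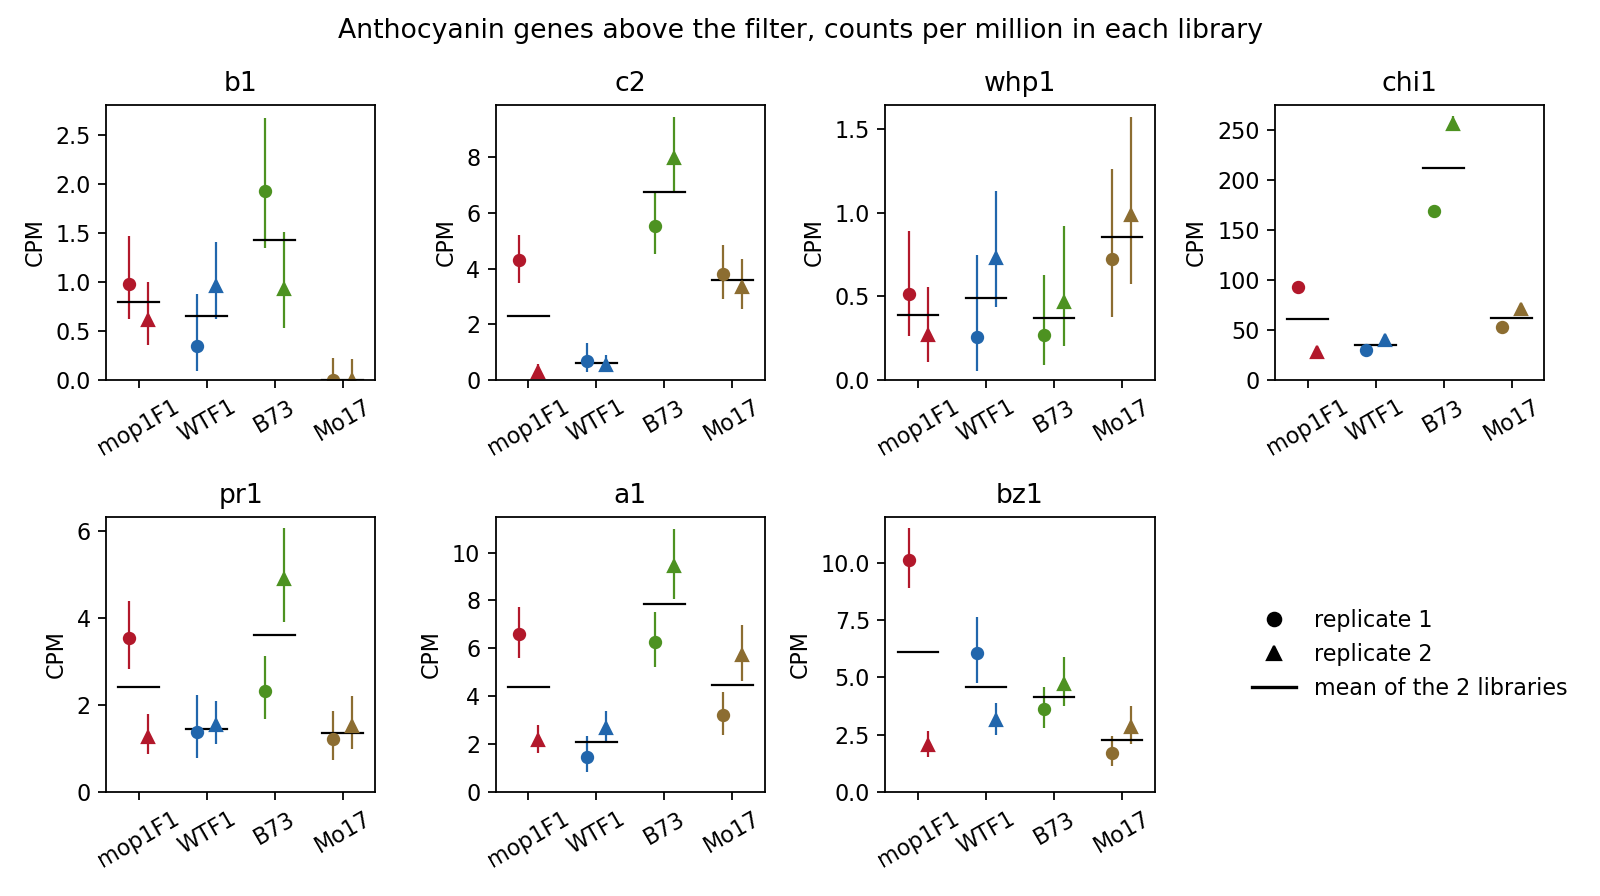
CPM (linear axis from 0) of the 7 tested anthocyanin genes in each library of mop1F1, WTF1, B73 and Mo17. Circles are replicate 1 and triangles replicate 2, vertical lines are exact 95% Poisson intervals for counting error, and horizontal bars are the mean of the 2 libraries; for chi1 the B73 libraries stand at 169 and 256.2 CPM, and for the enzymes mop1F1 replicate 1 stands above mop1F1 replicate 2.

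Each of the 6 enzyme genes had reads in every library, 3 to 4395 per gene and library. The 3 reads are those of whp1 in WTF1 replicate 1, which do not exceed what a value of 0 allows. In mop1F1 their mean was above that of WTF1 for 5 of the 6 enzymes, but the mop1F1 libraries enclosed or overlapped the WTF1 libraries for each of them. None of the 7 tested genes was called different between mop1F1 and WTF1 (edgeR; 0 at an unadjusted p below 0.05; 0 by DESeq2). Over all 24511 IDs tested, 0.00816% were called and 457 had an unadjusted p below 0.05 (edgeR). The libraries of mop1F1 and WTF1 did not overlap at 0 of the 7 genes, where 7.63% of all IDs were higher in mop1F1 without overlap and 5.38% lower.

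For c2 (Zm00001d052673.RefGen_V4), the main chalcone synthase gene of pigmented kernels, the levels were 4.30 and 0.269 CPM in mop1F1 and 0.682 and 0.534 CPM in WTF1. The mop1F1 libraries lay on either side of the WTF1 pair. The log2 fold change was 2.05 ± 1.10 (± SE; adjusted p = 1, edgeR). Its sign turned without mop1F1 replicate 1, to -1.18.

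The duplicate chalcone synthase gene whp1 (Zm00001d007403.RefGen_V4) had few reads: 12 and 7 in mop1F1 and 3 and 19 in WTF1, or 0.511 and 0.269 CPM against 0.256 and 0.725 CPM. It was the single enzyme with a lower mean in mop1F1, at a log2 fold change of -0.30 ± 0.84 (± SE; adjusted p = 1, edgeR). Without mop1F1 replicate 2 it was 0.14, and without WTF1 replicate 2 it was 0.64. Reads that fit both chalcone synthase copies may be lost or shared, and the same holds for the related regulators b1 and r1, or c1 and pl1.

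Chalcone isomerase, chi1 (Zm00001d034635.RefGen_V4), had the most reads of the set, so its counting error was the smallest. It stood at 93.4 and 27.8 CPM in mop1F1 and at 29.7 and 40.3 CPM in WTF1. Replicate 1 of mop1F1 was above both WTF1 libraries and replicate 2 was below both. The means of 60.6 ± 46.4 CPM in mop1F1 and 35.0 ± 7.51 CPM in WTF1 (SD, n = 2 each) gave a log2 fold change of 0.91 ± 0.57 (± SE; adjusted p = 1, edgeR), which became -0.38 without mop1F1 replicate 1.

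The hydroxylase gene pr1 (Zm00001d017077.RefGen_V4) stood at 3.53 and 1.27 CPM in mop1F1 and at 1.36 and 1.53 CPM in WTF1. The reductase gene a1 (Zm00001d044122.RefGen_V4) stood at 6.59 and 2.15 CPM in mop1F1 and at 1.45 and 2.67 CPM in WTF1. For the glucosyltransferase gene bz1 (Zm00001d045055.RefGen_V4) the values were 10.1 and 2.04 CPM in mop1F1 and 6.06 and 3.13 CPM in WTF1. For pr1 and bz1, replicate 1 of mop1F1 was above both WTF1 libraries and replicate 2 below both, whereas for a1 replicate 1 was above both and replicate 2 lay between them. The log2 fold changes were 0.83 ± 0.69 for pr1, 1.18 ± 0.68 for a1 and 0.54 ± 0.78 for bz1 (± SE; adjusted p = 1 for each, edgeR), and without mop1F1 replicate 1 they were -0.24, -0.01 and -1.21. The median log2 fold change over the 6 enzymes was 0.87, compared with 0.05 over all tested IDs.

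The hybrid libraries were then set side by side within each replicate number. In the names of the deposited tables the hybrid libraries numbered 1 carry the mark GP1 and those numbered 2 the mark GP5, whose meaning is not given in the sources used here. Among the libraries numbered 1, all 7 tested genes were higher in mop1F1 than in WTF1, as were 54.6% of all tested IDs. The ratio was above 2 for 6 of them, as it was for 11.9% of all tested IDs. For whp1 that ratio rests on 3 reads in WTF1 and was 2.24, with a 95% counting interval of 0.605 to 12.4 that included 1. Among the libraries numbered 2, none of the 7 was higher in mop1F1, whereas 49.5% of all tested IDs were. There the values of c2 and whp1 were more than 2-fold lower in mop1F1, as were 9.94% of all tested IDs. The layout of higher at number 1 and lower at number 2 held for 7 of the 7 genes and for 35.8% of all tested IDs.

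The ratio of mop1F1 to WTF1 for chi1 was 3.54 (95% counting interval 3.16 to 3.97) among the libraries numbered 1 and 0.679 (0.617 to 0.747) among those numbered 2. These intervals lie on opposite sides of 1. For bz1 the ratio was 1.88 (1.44 to 2.49) at number 1 and 0.641 (0.445 to 0.916) at number 2, again on opposite sides. The ratio for c2 was 7.08 (3.46 to 16.8) at number 1, and at number 2 its interval of 0.169 to 1.31 included 1. For a1 the values were 5.11 (3.09 to 9.0) and 0.793 (0.548 to 1.14). The intervals of b1 and pr1 at number 2 also included 1 (0.316 to 1.24 and 0.5 to 1.33). The intervals cover counting error in single libraries and hold no spread between plants, so these ratios compare libraries and not genotypes. Each rests on 1 library a side, and the difference between the numbers was not tested.

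**Figure D2:**
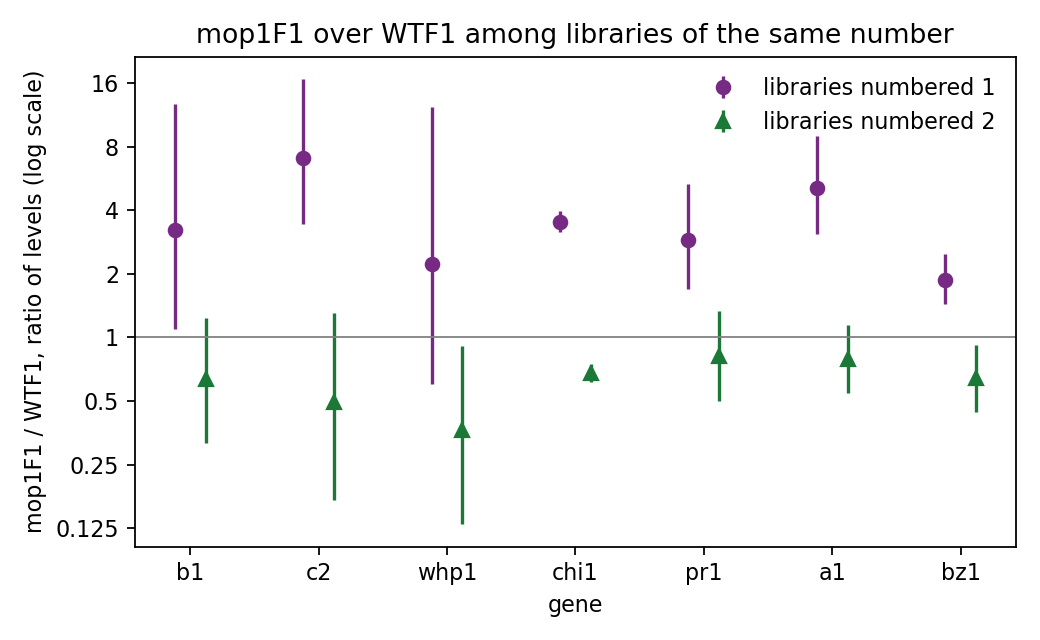
Ratio of mop1F1 to WTF1 (logarithmic axis) for the 7 tested anthocyanin genes, among the libraries numbered 1 (circles) and those numbered 2 (triangles), with exact 95% binomial intervals for counting error. Every circle lies above 1 and every triangle below 1, from 7.08 for c2 at number 1 to 0.365 for whp1 at number 2.

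The spread came mostly from the mop1F1 pair. All 6 enzymes were more than 2-fold higher in mop1F1 replicate 1 than in mop1F1 replicate 2, as were 20.1% of all tested IDs, with ratios from 2.14 for whp1 to 18.0 for c2. For whp1 the ratio rests on 12 and 7 reads, and in CPM alone, at 0.511 and 0.269, it was less than 2-fold. For c2 it rests on 7 reads in replicate 2, so the size of both ratios is uncertain. The change between the libraries of WTF1 was smaller for most enzymes: pr1 differed 1.14-fold, c2 1.26-fold and chi1 1.38-fold, and none was more than 2-fold higher in WTF1 replicate 1, as 18.0% of all tested IDs were. In WTF1 replicate 2, the values of b1 and whp1 were more than 2-fold above replicate 1, as were 10.6% of all tested IDs, but replicate 1 had 4 reads of b1 and 3 of whp1, so the size of these differences is uncertain. Summed over the 6 enzymes, the level was 118 and 33.8 CPM in mop1F1, 39.5 and 48.9 CPM in WTF1, 187 and 284 CPM in B73, and 63.3 and 84.9 CPM in Mo17. Most of these reads belong to chi1. Without it the sums were 25.1 and 5.99 CPM in mop1F1, 9.81 and 8.59 CPM in WTF1, 18.0 and 27.5 CPM in B73, and 10.6 and 14.4 CPM in Mo17, so mop1F1 replicate 1 stood within the range of the B73 libraries and mop1F1 replicate 2 below all other libraries. In whole ears, fewer pigment-forming cells and less RNA per cell cannot be told apart. The share of ambiguous reads was high in the libraries numbered 1 of both hybrids, and its part in these values was not tested.

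**Figure D3:**
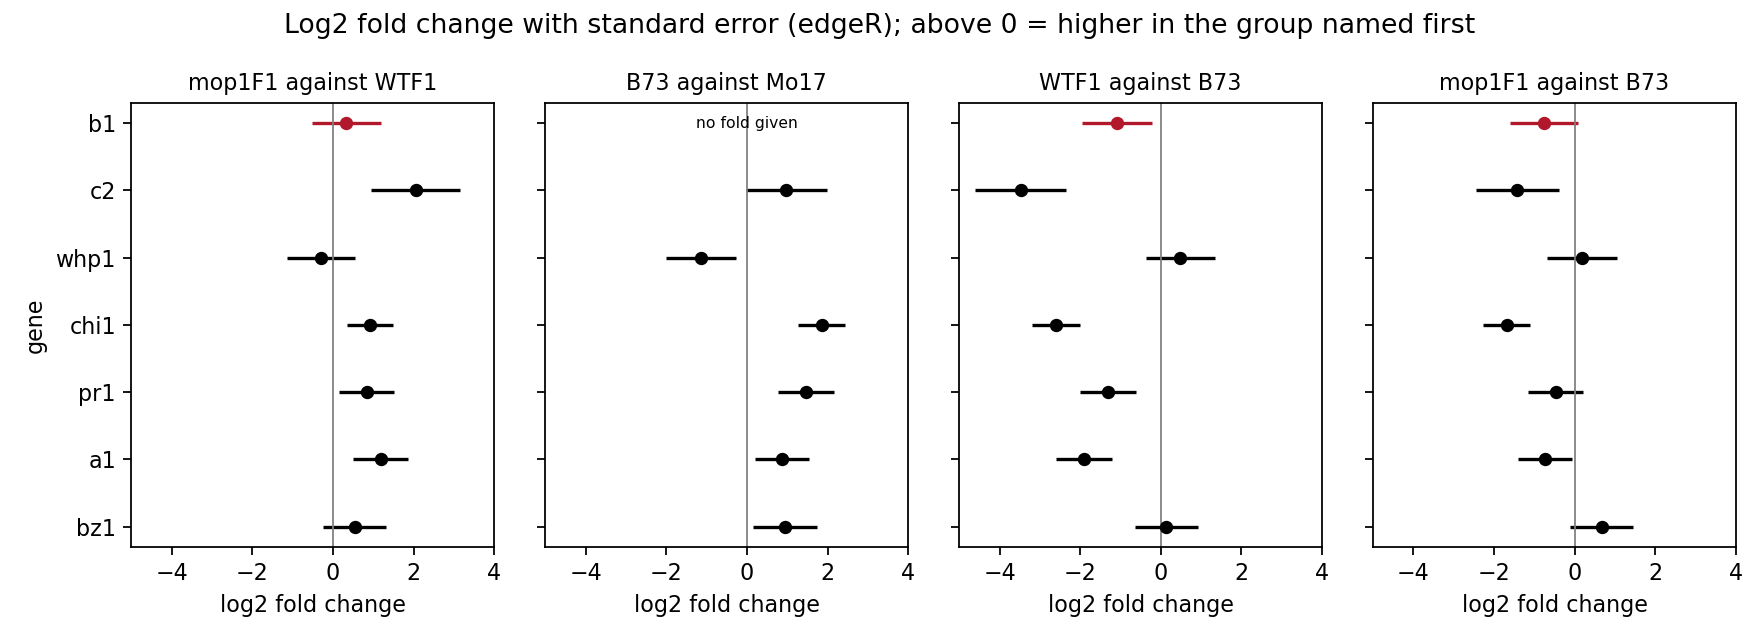
Log2 fold changes (points) with their standard errors (bars) from the edgeR fit of all 8 libraries, for the 7 tested anthocyanin genes in 4 comparisons; values above 0 are higher in the group named first. For WTF1 against B73, c2 at -3.48 and chi1 at -2.60 lie farthest below 0, and no fold is given for b1 between the parents.

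Between the parents, B73 had the higher level of 5 of the 6 enzymes and Mo17 that of whp1. The libraries of the parents did not overlap at any of the 6 enzymes; b1 is left aside here because of its 0 in Mo17. Over all tested IDs, 36.2% were higher in B73 without overlap and 35.0% lower, so for a single gene such a layout was common. Apart from b1, none of the tested genes was called by edgeR, where 10.4% of all IDs were. At an unadjusted p below 0.05 (edgeR) stood 1 enzyme, chi1, as did 5773 of all 24511 IDs tested. The median log2 fold change over the enzymes was 0.96, compared with 0 over all tested IDs.

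For chi1 the levels were 169 and 256.2 CPM in B73 and 52.7 and 70.5 CPM in Mo17. Both B73 libraries were well above both Mo17 libraries. The log2 fold change was 1.85 ± 0.58 (± SE; adjusted p = 0.0945, edgeR). DESeq2 called it (adjusted p = 0.0126), with 3783 of all 39498 IDs called, which include those that failed the edgeR filter. A fit limited to the parental libraries also called chi1 (edgeR, adjusted p = 8.35e-05). Without any 1 library, its log2 fold change ran from 1.54 to 2.11. Whether edgeR called chi1 changed with the library left out, also for the mop1F1 libraries, which do not belong to the groups compared.

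The next difference in size was that of pr1, with 2.31 and 4.90 CPM in B73 and 1.21 and 1.5 CPM in Mo17, a log2 fold change of 1.47 ± 0.70 (± SE; adjusted p = 0.263, edgeR). The chalcone synthase gene c2 stood at 5.53 and 7.99 CPM in B73 and at 3.80 and 3.35 CPM in Mo17 (log2 fold change 0.98 ± 1.01, SE; adjusted p = 0.637, edgeR). Both were called in the fit of the parents alone (edgeR, adjusted p = 0.0393 for pr1 and 0.0394 for c2), which brought the calls to 4 of 7 with b1 and chi1. In that fit 9334 of 23444 IDs were called. The call of b1 there rests on its 0 in Mo17, which can stand for an ID left out of the counting.

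The reductase gene a1 had 6.28 and 9.44 CPM in B73 and 3.20 and 5.73 CPM in Mo17. For bz1 there were 3.60 and 4.72 CPM in B73 and 1.69 and 2.83 CPM in Mo17. The duplicate whp1 ran the other way, at 0.268 and 0.466 CPM in B73 and 0.724 and 0.983 CPM in Mo17, with 5 to 17 reads per library. Their log2 fold changes of 0.88 ± 0.67 (a1), 0.94 ± 0.80 (bz1) and -1.14 ± 0.86 (whp1) did not pass the test (± SE; adjusted p = 0.499, 0.549 and 0.494, edgeR). The genome that each parent was mapped to differs along with the parent, and their parts in these differences cannot be told apart.

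The wild-type hybrid was then set against the parents. Both WTF1 libraries lay below all 4 parental libraries for c2, chi1 and a1, which is 3 of the 6 enzymes, as they did for 11.6% of all tested IDs. Both mop1F1 libraries did so for none of the 6 enzymes, and for 10.7% of all tested IDs. For c2, chi1 and a1, mop1F1 replicate 2 was also below all 4 parental libraries, whereas mop1F1 replicate 1 was not. The regulator b1, at 0 in Mo17, could not take part in this count. Mo17 reads were mapped to Mo17 in the parent and to B73 in the hybrids, so positions against Mo17 are a description with no test. Against B73, which was mapped to the same genome, 4 of the 7 genes (c2, chi1, pr1 and a1) were lower in WTF1 without overlap, as were 27.0% of all tested IDs. Reads of low alignment quality were more frequent in the hybrids, at 8.01% to 9.35% of records in the 4 mop1F1 and WTF1 libraries. They made up 1.76% and 2.24% in the B73 libraries and 5.76% and 6.06% in the Mo17 libraries. Their part in the differences of either hybrid from the parents was not tested. None of the 7 passed the edgeR test, where 3.25% of all IDs did. At an unadjusted p below 0.05 (edgeR) stood 3 of the 7, as did 5261 of all 24511 IDs tested. DESeq2 called 2, both lower in WTF1: c2 (adjusted p = 0.0101) and chi1 (adjusted p = 0.000237). It called 2526 of all 39498 IDs, which include those that failed the edgeR filter.

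With 0.608 ± 0.105 CPM in WTF1 and 6.76 ± 1.74 CPM in B73 (SD, n = 2 each), c2 had a log2 fold change of -3.48 ± 1.14 (± SE; adjusted p = 0.143, edgeR). The level of chi1 was 35.0 ± 7.51 CPM in WTF1 and 213 ± 61.7 CPM in B73 (SD, n = 2 each), a log2 fold change of -2.60 ± 0.60 (± SE; adjusted p = 0.0649, edgeR). For a1 the means were 2.06 ± 0.864 CPM in WTF1 and 7.86 ± 2.24 CPM in B73, and for pr1 they were 1.45 ± 0.114 CPM and 3.60 ± 1.83 CPM in the same order (SD, n = 2 each). Their log2 fold changes were -1.91 ± 0.69 and -1.31 ± 0.70 (± SE; adjusted p = 0.174 and 0.325, edgeR). The last enzyme bz1 stood apart from these, at 6.06 and 3.13 CPM in WTF1 and 3.60 and 4.72 CPM in B73, a log2 fold change of 0.13 ± 0.78 (± SE; adjusted p = 0.944, edgeR). Without any 1 library, the log2 fold change ran from -3.71 to -3.20 for c2 and from -2.86 to -2.28 for chi1. Whether edgeR called these 2 genes changed with the library left out. That also held for the mop1F1 libraries, which do not belong to the groups compared.

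The mutant hybrid was set against the same B73 libraries, so the comparison is not independent of that of WTF1. Both mop1F1 libraries lay below both B73 libraries for c2 and chi1, 2 of the 7 genes, as for 25.4% of all tested IDs. None of the 7 genes was called (edgeR; 1 at an unadjusted p below 0.05; chi1 by DESeq2, adjusted p = 0.0317), where 3.50% of all IDs were. For chi1 the log2 fold change was -1.69 ± 0.58 (± SE; adjusted p = 0.153, edgeR) and for c2 it was -1.42 ± 1.02 (± SE; adjusted p = 0.475, edgeR). Without mop1F1 replicate 1 the log2 fold changes were -2.91 for chi1 and -4.60 for c2. Without any 1 of the other 7 libraries they ran from -1.95 to -1.03 for chi1 and from -1.65 to -0.49 for c2. Whether edgeR called these 2 genes also changed with the library left out.

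For pr1, a1 and bz1 the mop1F1 libraries enclosed or overlapped those of B73. Their log2 fold changes were -0.47 ± 0.68, -0.73 ± 0.67 and 0.67 ± 0.78 (± SE; adjusted p = 0.742, 0.583 and 0.676, edgeR). For whp1 the value was 0.18 ± 0.87 (± SE; adjusted p = 0.935, edgeR). The regulator b1 was at 0.796 ± 0.257 CPM in mop1F1, at 0.648 ± 0.433 CPM in WTF1 and at 1.43 ± 0.707 CPM in B73 (SD, n = 2 each). Against B73 its log2 fold change was -0.76 ± 0.85 in mop1F1 and -1.09 ± 0.86 in WTF1 (± SE; adjusted p = 0.665 and 0.515, edgeR).

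As a share of the mean of the B73 and Mo17 means, c2 stood at 94.2% and 5.24% in mop1F1 and at 13.3% and 10.6% in WTF1. The values for chi1 were 76.7% and 20.3% in mop1F1 and 21.7% and 29.9% in WTF1. For a1 they were 121% and 35.2% in mop1F1 and 23.7% and 44.4% in WTF1. The position of bz1 was higher, at 357% and 63.9% in mop1F1 and 190% and 99.7% in WTF1. For pr1 it was 161% and 51.4% in mop1F1 and 55.4% and 62.8% in WTF1, and for whp1, with 3 to 19 reads per library, it was 96.3% and 45.1% in mop1F1 and 42.9% and 123% in WTF1. Of the 4 hybrid libraries, mop1F1 replicate 1 had the highest share for every enzyme except whp1. Mo17 reads were mapped to Mo17 in the parent and to B73 in the hybrids, so these shares are a description with no test.

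**Figure D4:**
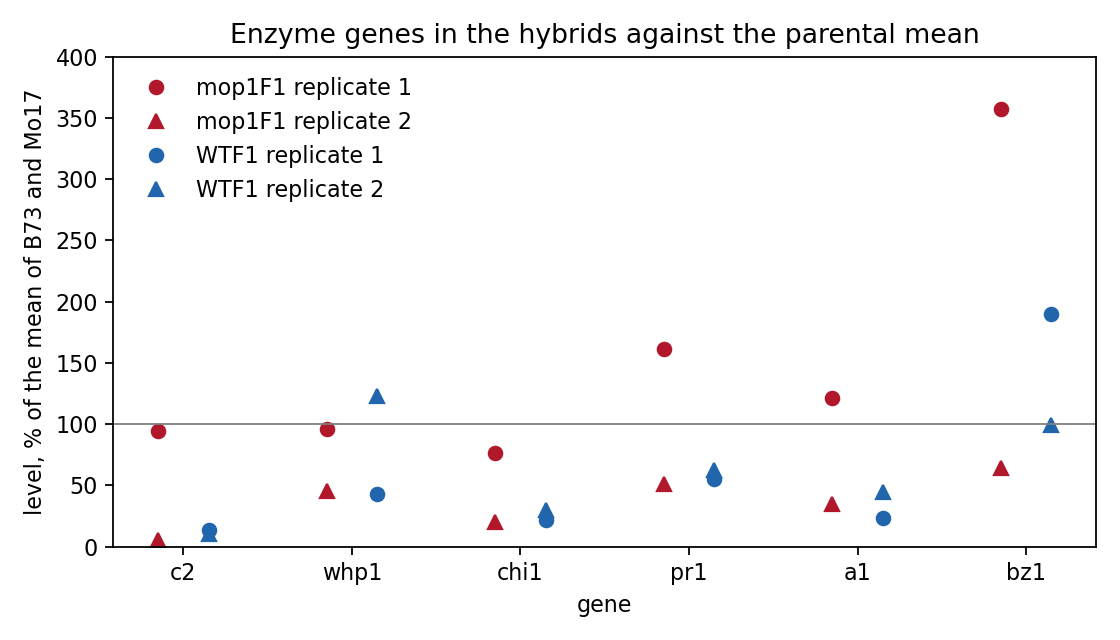
Level of the 6 enzyme genes in each hybrid library as a percent of the mean of the B73 and Mo17 means (linear axis, grey line at 100%), with circles for replicate 1 and triangles for replicate 2. Both WTF1 libraries are below 50% for c2, chi1 and a1, and mop1F1 replicate 1 reaches 357% for bz1.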

How the data were processed

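The authors deposited whole-number counts per gene ID, 1 table per library, with 39498 IDs and 5 summary rows, which entered neither library sizes nor tests. The submitters' processing notes name, with no version, the tools FastQC, Trimmomatic, HISAT2, HTSeq and DESeq2. How the counting treated strand, and which annotation it used, is not given in the sources used here. Reads of overlapping or antisense genes may be mixed. Sample titles gave the groups and replicate numbers; where a table's name gave another number (1 B73 library), the title was followed. The summary rows held 3.64% to 5.79% of records without a feature and 1.76% to 9.35% of low alignment quality.

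Gene names were taken from the list that defined the set. None of the 39324 file IDs of the same style occurs in the RefSeq gene table for Zm-B73-REFERENCE-NAM-5.0. That table holds 8 of the 10 names without linking them to these IDs. The names could therefore not be checked, and no coordinates, sequences or further pathway genes are given. All 10 genes are named, whatever their values. The set is defined by gene names alone, but it was taken up, like the groupings used, with earlier results of these data known.

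The tests ran in R 4.3.3 with limma 3.58.1 and edgeR 4.0.16, with the filter filterByExpr by group, scaling by TMM, 1 mean per group, all 8 libraries in 1 fit, the quasi-likelihood F test and Benjamini-Hochberg adjustment over 24511 IDs, with a threshold of 0.05. Standard errors of log2 fold changes are the absolute log2 fold change over the root of F. CPM uses the gene total of a library; non-overlap, ratios between libraries and shares of the parental mean also use the TMM factors. Alternatives were other scalings and filters, DESeq2 1.42.0, a replicate block, a term for the GP1 hybrids, the compared groups alone, and leaving out each library.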

Additional observations from a re-analysis of the deposited data

Results flagged for a closer look

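The direction of mop1F1 against WTF1 was opposite among the libraries numbered 1 and those numbered 2 for all 7 tested genes. The ratio of mop1F1 to WTF1 was 3.22 at number 1 and 0.634 at number 2 for b1, 7.08 and 0.496 for c2, 2.24 (95% counting interval 0.605 to 12.4, on 3 reads in WTF1) and 0.365 for whp1, and 3.54 and 0.679 for chi1. It was 2.91 and 0.818 for pr1, 5.11 and 0.793 for a1, and 1.88 and 0.641 for bz1. At number 2 the 95% counting interval included 1 for b1 (0.316 to 1.24) and c2 (0.169 to 1.31). The same held for pr1 (0.5 to 1.33) and a1 (0.548 to 1.14). Both intervals excluded 1 for chi1 and bz1 alone. Each ratio has 1 library a side, and the difference between the numbers was not tested. Higher at number 1 and lower at number 2, the order of these 7 genes, was found at 35.8% of all tested IDs. That share leaves out IDs with the reverse order, so opposite directions in either order were more common. Of all tested IDs, 54.6% were higher in mop1F1 at number 1 and 49.5% at number 2.

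Reads that fitted several genes, set aside by the counting step, were more frequent than in any parental library in mop1F1 replicate 1 (10.25% of records) and WTF1 replicate 1 (9.70%). Their part in the values above was not tested.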

How the results depend on the processing

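No anthocyanin gene was called between mop1F1 and WTF1 under any of the 16 alternatives. In that comparison the 2 IDs called over the whole table became 11 without a filter, 41 with DESeq2, and 0 with a filter of 1 CPM in 2 libraries, with the replicate block, with a term for the GP1 hybrids or in the hybrids alone (0 to 187 without 1 library). Between B73 and Mo17, the 1 anthocyanin gene called (b1) became 2 without a filter or with DESeq2, 0 with the 1 CPM filter, which removes b1, and 4 in the parents alone (0 to 2 without 1 library); b1 was lost without any 1 parental library (edgeR, adjusted p = 0.0705 to 0.123). The 2561 IDs became 4010 with the GP1 term and 9334 in the parents alone (1062 to 3859 without 1 library). For WTF1 against B73, the 0 genes called became 1 with library totals alone or without a filter, and 2 with DESeq2, the GP1 term or the 2 groups alone (0 to 2 without 1 library), and the 796 IDs became 1436 without a filter, 2526 with DESeq2, 528 with the replicate block and 2501 with the GP1 term (83 to 2470 without 1 library). For mop1F1 against B73, the 0 genes became 1 with DESeq2 (0 to 2 without 1 library), and the 858 IDs became 1448 without a filter, 2592 with DESeq2, 2832 with the GP1 term and 0 in the 2 groups alone (94 to 3161 without 1 library). The cause of these shifts was not tested. The call of b1 between the parents rests on its 0 in Mo17, which can stand for an ID left out of the counting. Signs turned without 1 library, with log2 fold changes for mop1F1 against WTF1 of -0.17 to 1.26 (b1), -1.18 to 2.99 (c2), -0.96 to 0.64 (whp1), -0.38 to 1.57 (chi1), -0.24 to 1.43 (pr1), -0.01 to 1.80 (a1) and -1.21 to 1.31 (bz1). Against B73 they ran from -0.47 to 1.02 (whp1) and -0.36 to 0.58 (bz1) in WTF1, and from -0.41 to 0.63 (whp1), -1.48 to 0.15 (pr1) and -1.01 to 1.44 (bz1) in mop1F1; the GP1 term also turned bz1, to -0.74 in WTF1 and -0.59 in mop1F1. With the GP1 term, the mean of each hybrid stands for its level without the GP1 mark. The calls and folds of that fit against B73 therefore concern that level and not the mean of both libraries. Equal replicate numbers are not said to mark shared plants or days. Deviations of same-numbered libraries correlated at 0.306 across IDs between the hybrids and at 0.013 between the parents, and the replicate block changed no call of an anthocyanin gene.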
